A study of Mus musculus with 12 samples.

Results

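The mature microRNAs of the mouse miR-17~92 cluster, together with miR-20b, were followed through tunicamycin treatment in cells with and without ATF6b. The members were taken by name: mmu-miR-17, its passenger strand mmu-miR-17*, mmu-miR-18a, mmu-miR-19a, mmu-miR-20a, mmu-miR-19b and mmu-miR-92a from the cluster, and mmu-miR-20b from a related cluster. They made up 8 of the 650 microRNAs on the array, of which 611 were mouse and 39 viral. The prefix mmu stands for mouse.

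The study measured microRNAs in mouse embryonic fibroblasts (MEFs), cells cultured from embryos, of C57BL/6 background. ATF6bKO cells lack ATF6b, a transcription factor held at the endoplasmic reticulum membrane and related to the stress sensor ATF6. ATF6bWT cells carry the normal gene. Tunicamycin blocks N-linked glycosylation, so that misfolded proteins build up in the endoplasmic reticulum and the unfolded protein response starts. The groups were ATF6bKO cells left untreated, ATF6bKO cells given tunicamycin at 2 ug/mL for 12 h, ATF6bKO cells given it for 24 h, and the same 3 conditions in ATF6bWT cells. Each group had 2 arrays, 12 in all, each hybridised with Cy3-labelled small RNA from 100 ng of total RNA. The labels do not say how many embryos or cell lines stand behind a genotype, so the p-values measure the spread between these arrays, which may be technical.

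The miR-17~92 cluster is a single primary transcript that is cut into several hairpins, each of which can yield a mature microRNA. MYC and E2F factors are known to switch it on, and its products repress, among others, the pro-apoptotic gene Bim and the cell-cycle inhibitor p21. A mature microRNA finds its targets mainly through its seed near the 5′ end, so members with the same seed share many targets. The mammalian genome holds paralogous clusters that arose by duplication and share all or some of the seeds of miR-17~92. They are that of miR-106a and miR-363 on the X chromosome and that of miR-106b and miR-25 in an intron of Mcm7.

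The mature sequences are shown because they decide which members share a seed and how closely the array's probes had to discriminate between them. They are from RefSeq (GRCm38.p6), written 5′ to 3′, with the seed (bases 2 to 8) in capitals. All 8 members were matched.

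miR-17: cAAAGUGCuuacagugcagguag
miR-20a: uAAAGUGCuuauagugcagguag
miR-20b: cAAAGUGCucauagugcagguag
miR-18a: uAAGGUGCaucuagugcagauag
miR-19a: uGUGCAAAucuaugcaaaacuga
miR-19b: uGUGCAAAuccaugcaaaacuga
miR-92a: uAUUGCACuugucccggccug
miR-17*: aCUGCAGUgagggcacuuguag

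The 8 members had 5 seeds. The seed AAAGUGC was shared by miR-17, miR-20a and miR-20b, and GUGCAAA by miR-19a and miR-19b. Counting positions from 1 at the 5′ end, and giving the base of the first-named microRNA first, miR-19a and miR-19b differed by the single substitution U11C, and miR-20a and miR-20b by U1C and U10C. The miR-17 sequence differed from miR-20a by C1U and C12U and from miR-20b by U10C and C12U. Whether the probes kept such close sequences apart was not tested, so the signals of miR-19a and miR-19b, and of miR-20a and miR-20b, may share some RNA.

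The 6 hairpins of the cluster lie within 836 bases of chromosome 14 (GRCm38.p6, chr14:115043671-115044506, plus strand), in the order Mir17, Mir18, Mir19a, Mir20a, Mir19b-1 and Mir92-1. The Mir17 hairpin is shown because it yields both miR-17, not detected on any array, and miR-17*. Its 2 mature arms are in capitals, miR-17 first.

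Mir17 hairpin: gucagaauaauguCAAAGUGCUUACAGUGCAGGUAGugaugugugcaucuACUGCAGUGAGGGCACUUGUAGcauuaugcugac

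The miR-20b hairpin lies in the cluster of miR-106a and miR-363, 6 hairpins within 875 bases of the X chromosome (chrX:52741693-52742567, minus strand). Mature miR-19b and miR-92a are encoded a second time there, by Mir19b-2 and Mir92-2, with the same sequence, so their signals can come from either cluster.

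Levels are given as the summed probe signal of a microRNA divided by the array's 75th percentile over the 93 mouse microRNAs detected on all 12 arrays. They compare 1 microRNA between arrays and not one microRNA with another. The 6 members detected on all arrays are among the 93 and so help to set the scale. Each member had 2 probes of 10 spots. Signal was lower on 3 arrays, with a 75th percentile of 208 to 257 (replicate 2 of KO 24 h, KO 12 h and WT 24 h) against 412 to 623 on the others. The arrays detected between 114 and 189 mouse microRNAs. The slide of the untreated arrays was not that of the treated arrays, and the KO arrays took 1 row of each slide and the WT arrays the other. Effects of the slide and of tunicamycin, and effects of the row and of the genotype, cannot be told apart. Of 12 fibroblast microRNAs on a marker list, 9 to 11 were detected on each array. None of the blood, neural, or endothelial and liver markers was detected on any array, and at most 1 of 4 muscle and 2 of 13 pluripotency markers were. Of 6 epithelial markers, 3 to 4 were detected on each treated KO array, where they made up 1.92 to 2.74% of the summed signal, and none on any other array, where they made up at most 0.0167%.

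Of the Mir17 hairpin's products, miR-17, the guide strand, was detected on 0 of 12 arrays, with 0 of 229 spots well above background, and did not enter the tests. Whether its probes work on this array was not tested, so this does not show that the cells lacked miR-17. miR-17* was detected on 9 of 12 arrays, missing on the low-signal arrays named above. The other 6 members were detected on all 12, and 7 of the 8 members therefore entered the tests.

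mmu-miR-20a shares the seed of miR-17. Its scaled signal was 0.121 and 0.122 in untreated KO cells, 0.619 and 0.689 at 12 h and 0.531 and 0.519 at 24 h. In WT cells it was 0.266 and 0.231 untreated, 0.719 and 0.722 at 12 h and 0.641 and 0.62 at 24 h. Every treated array stood above every untreated array in both genotypes, and the untreated KO arrays were the lowest of all.

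mmu-miR-20b, the member with that seed from the X chromosome, measured 0.0435 and 0.0327 in untreated KO cells, 0.199 and 0.216 at 12 h and 0.178 and 0.134 at 24 h. The WT arrays gave 0.0926 and 0.0757 untreated, 0.271 and 0.251 at 12 h and 0.221 and 0.192 at 24 h. The order of the groups was that of miR-20a, and only the KO 12 h and WT 24 h groups overlapped in their range.

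mmu-miR-19a belongs to the family credited with much of the cluster's oncogenic activity in mouse lymphoma. It measured 0.0483 and 0.0489 in untreated KO cells, 0.348 and 0.387 at 12 h and 0.256 and 0.222 at 24 h. In WT cells the values were 0.121 and 0.0911 untreated, 0.318 and 0.345 at 12 h and 0.294 and 0.223 at 24 h. Here the KO 12 h arrays were the highest of all, the only member for which a KO group led the order.

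mmu-miR-19b, of the same seed, read 0.348 and 0.316 in untreated KO cells, 1.00 and 1.11 at 12 h and 0.881 and 0.752 at 24 h. The 1.00 is set by the scaling, since on that array miR-19b was itself the 75th percentile (446). WT cells gave 0.597 and 0.499 untreated, 1.33 and 1.32 at 12 h and 1.29 and 1.18 at 24 h. All 6 groups of miR-19b were separate, with the KO groups each below their WT counterpart.

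mmu-miR-92a, whose family is known to restrain Bim and, in endothelium, vessel growth, measured 0.286 and 0.277 in untreated KO cells, 0.826 and 0.95 at 12 h and 0.772 and 0.734 at 24 h. The WT readings were 0.414 and 0.392 untreated, 1.52 and 1.3 at 12 h and 1.33 and 1.25 at 24 h. The treated WT arrays stood clear of the treated KO arrays, and the treated WT groups at 12 and 24 h overlapped.

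mmu-miR-18a has a seed of its own among the members and is known for needing the RNA-binding protein hnRNP A1 for its processing. Its values were 0.0465 and 0.0476 in untreated KO cells, 0.168 and 0.178 at 12 h and 0.134 and 0.0902 at 24 h. In WT cells they were 0.123 and 0.0915 untreated, 0.251 and 0.213 at 12 h and 0.179 and 0.14 at 24 h. The KO 24 h arrays overlapped the untreated WT arrays, and the KO 12 h arrays overlapped the WT 24 h arrays.

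mmu-miR-17* measured 0.0331 and 0.0285 in untreated KO cells, 0.0298 and 0.0314 at 12 h and 0.0381 and 0.0187 at 24 h. The WT values were 0.0574 and 0.0465 untreated, 0.0972 and 0.0711 at 12 h and 0.0781 and 0.0558 at 24 h. All 6 KO arrays lay below all 6 WT arrays, and within KO cells the 3 groups overlapped. The lowest KO value stood at the floor of the scale.

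**Figure D1:**
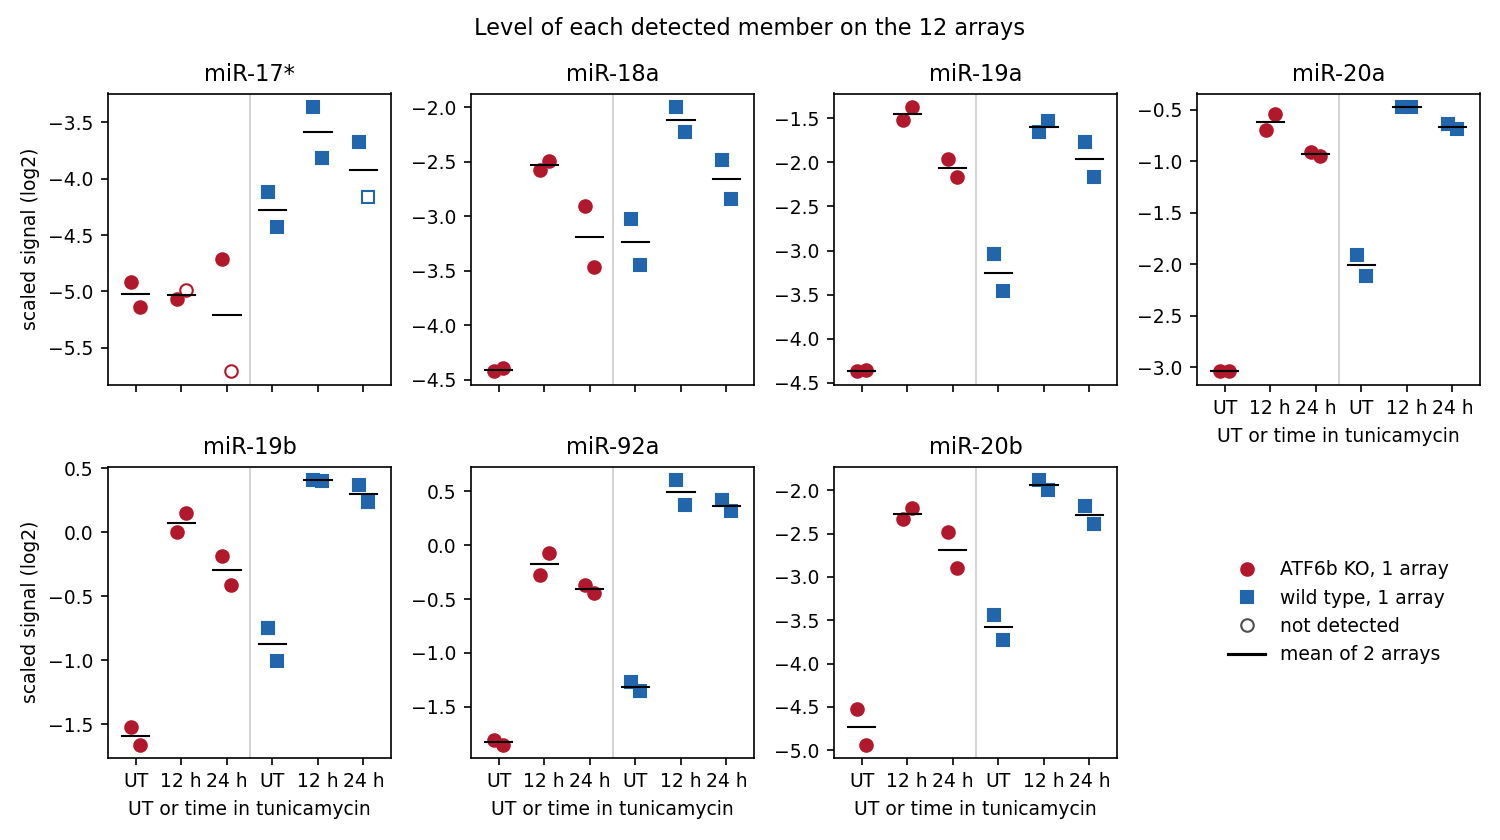
Scaled signal (log2) of the 7 detected members on the 12 arrays, 1 panel a member, with ATF6bKO arrays left of wild-type arrays and untreated cells (UT) before 12 h and 24 h of tunicamycin. Points are arrays, open points were not detected, and lines are means of 2 arrays. For 6 members the untreated KO arrays sit lowest and the treated arrays of both genotypes sit above the untreated arrays of the same genotype, while miR-17* sits lower on all KO arrays than on all WT arrays. How many other microRNAs show these orders was not counted.

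The response to tunicamycin in KO cells was a rise of 6 of the 7 tested members at 12 h. miR-19a rose most, by 2.92 on the log2 scale (SE 0.19, adjusted p = 1.32e-05 by limma), a 7.55-fold change with n = 2 arrays a group. miR-20b rose by 2.46 (SE 0.20, adjusted p = 5.28e-05) and miR-20a by 2.43 (SE 0.11, adjusted p = 1.56e-06). The changes of miR-18a, miR-19b and miR-92a were 1.88, 1.67 and 1.65, with adjusted p of at most 0.000581. miR-17* gave -0.0032 (95% confidence interval -0.78 to 0.77). For miR-18a, miR-19a and miR-20b the untreated KO signal was near background, which limits these changes. On replicate 1 the 2 probes of miR-19a had 1 of 10 and 0 of 10 spots well above background. Those of miR-20b had 0 of 10 and 0 of 9, and those of miR-18a 0 of 10 and 1 of 9. On replicate 2 the brighter probe had 8 of 9, 8 of 10 and 10 of 10 in the same order, and the other probe 0. Among all 176 microRNAs tested, 21.6% were called higher in this comparison, and the median change was 0.25, against 1.88 over the 7 members.

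At 24 h the same 6 members were higher in treated KO cells, against 25.6% of all microRNAs tested. The log2 changes were 2.30 for miR-19a, 2.11 for miR-20a, 2.04 for miR-20b, 1.42 for miR-92a, 1.29 for miR-19b and 1.22 for miR-18a, with adjusted p of at most 0.00581 by limma. miR-17* gave -0.18 (interval -0.96 to 0.59). The members' median was 1.42, against 0.15 over all microRNAs. The 12 h and 24 h comparisons share the untreated arrays and are not independent. The epithelial markers were detected on these treated KO arrays and on none of the untreated ones, and their part in the result was not tested.

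In WT cells 6 of the 7 tested members rose at 12 h, where 14.2% of all microRNAs were called higher. miR-92a rose most, by 1.80 on the log2 scale (SE 0.13, adjusted p = 5.08e-05 by limma), a 3.49-fold change. It was followed by miR-19a at 1.66, miR-20b at 1.64 and miR-20a at 1.54, with adjusted p of at most 0.00054. miR-19b rose by 1.28, and miR-18a by 1.12 with the highest adjusted p of the 6, 0.00724. miR-17* stood 0.69 higher (interval -0.09 to 1.46, adjusted p = 0.143), with both treated arrays above both untreated ones. The replicate block gave an adjusted p of 0.0435 and the scan session as a block 0.0480 (limma). The latter was for an estimate of 0.79, which refers to the sessions of replicate 1 and is another contrast. Untreated and treated arrays shared no session and replicate numbers pair arrays within a slide only, so neither block adjusts this comparison for session. The median over the 7 members was 1.54, against -0.05 over all microRNAs.

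At 24 h in WT cells 5 members were called higher, against 13.6% of all microRNAs. These were miR-92a with a log2 change of 1.68, miR-20a with 1.35, miR-20b with 1.30, miR-19a with 1.29 and miR-19b with 1.18, with adjusted p of at most 0.00163 by limma. miR-18a stood 0.58 higher (interval 0.03 to 1.12, adjusted p = 0.0835) and miR-17* 0.35 higher (interval -0.42 to 1.13). With the replicate block miR-18a passed (limma, adjusted p = 0.0291). It did not with the scan session as a block, where the estimate refers to the sessions of replicate 1. Replicate numbers pair arrays within a slide only.

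**Figure D2:**
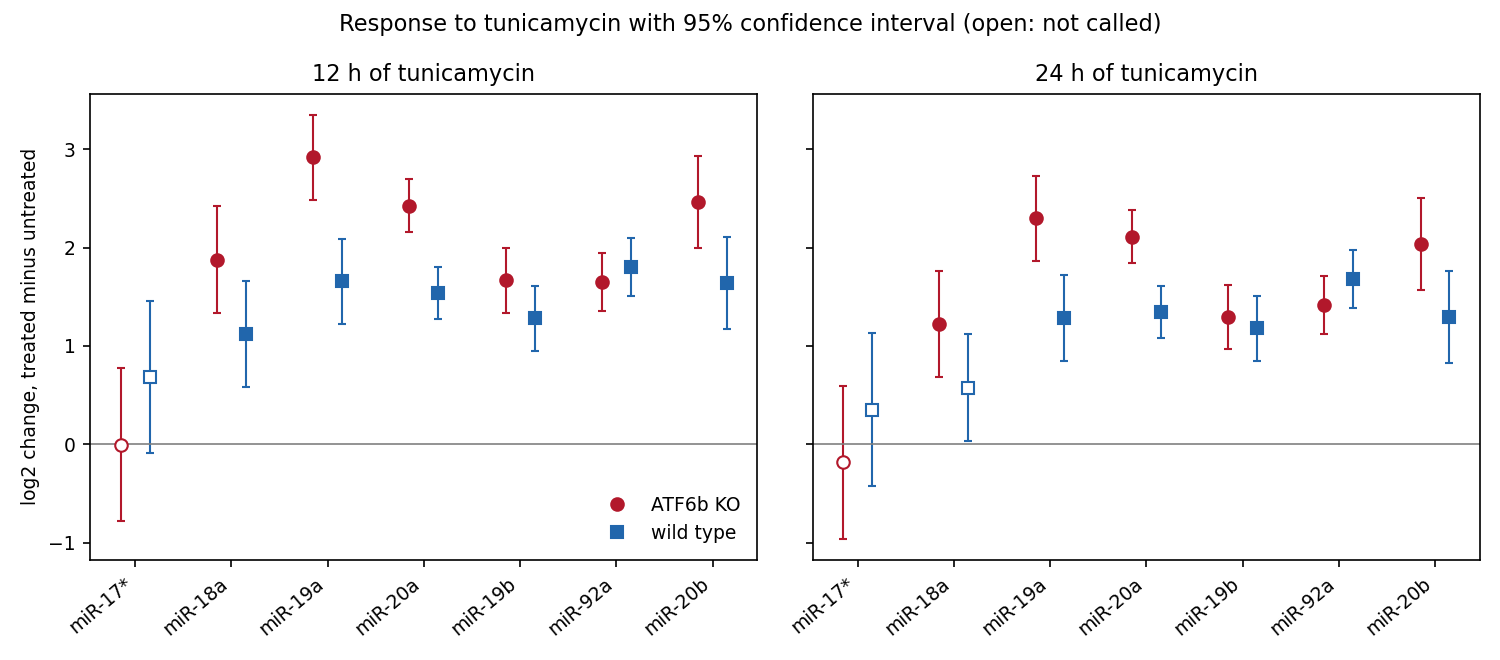
Log2 change in treated against untreated cells at 12 h (left) and 24 h (right) for each tested member, with the 95% confidence interval from limma (2 arrays a group). Circles are ATF6bKO and squares wild type, and open symbols did not pass the adjusted p of 0.05. The largest changes are those of miR-19a, miR-20a and miR-20b in KO cells, with miR-19a at 2.92 at 12 h, and the intervals of miR-17* cross 0 throughout.

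The members' summed share of all microRNA signal, which uses each array's own total in place of the percentile, was 0.824 and 0.890% in untreated KO cells, 2.55 and 2.63% at 12 h and 2.11 and 2.03% at 24 h. In WT cells it was 1.38 and 1.39% untreated, 4.03 and 3.64% at 12 h and 3.79 and 3.12% at 24 h. Treated arrays stood above untreated ones in each genotype, and KO arrays below WT arrays at each time. In bulk cultures fewer cells with a microRNA and less of it per cell cannot be told apart.

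Calls of the treatment response depended on the background correction and on how the arrays were put on 1 scale. Here and below, counts under an alternative are given without the share of all microRNAs called in the same setting. A change in such a count may not be particular to the members. With the deposited unscaled log2 values no member was called in either genotype. With normexp background correction, which kept the percentile scaling and added an offset of 50 to each intensity, 1 was called in KO cells at 12 h. None was called in the other 3 comparisons, and the effect of the offset was not tested. With normexp the members' median exceeded that of all microRNAs by less, 0.67 in KO cells and 0.18 in WT cells at 12 h and 0.46 and 0.48 at 24 h, against 1.63 and 1.59 at 12 h and 1.27 and 1.31 at 24 h in the scaling used here. Scaling over all mouse microRNAs left 3 calls in KO cells at 12 h, 1 at 24 h and none in WT cells, with the members' median 1.63 in KO cells and 1.59 in WT cells above that of all microRNAs at 12 h. With the deposited values miR-20b turned to -0.42 in KO cells at 12 h. These values did not follow the summed probe signal there. They were 5.98 and 5.90 untreated at summed signals of 27.1 and 19.6, and 5.90 and 5.14 at 12 h at 88.8 and 53.2.

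Between 12 h and 24 h no member was called in either genotype (limma, 2 arrays a group), where 0.568% of all microRNAs were called in KO cells and 1.14% in WT cells in either direction. At an unadjusted p under 0.05, 16 of the 176 microRNAs passed in KO cells and 12 in WT cells. All 7 members had a negative estimate in both genotypes. In KO cells miR-18a stood at -0.66 (interval -1.20 to -0.11, adjusted p = 0.415) and miR-19a at -0.62 (interval -1.05 to -0.19, adjusted p = 0.284). The medians were -0.37 in KO cells and -0.33 in WT cells, against -0.13 over all microRNAs in each.

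The genotypes were compared first in untreated cells, where 6 of the 7 tested members were lower in KO cells, against 9.66% of all microRNAs. miR-18a was lower by the most, with a log2 difference of -1.17 (SE 0.23, adjusted p = 0.0144 by limma), a KO level 0.444 times that of WT. The difference was -1.15 for miR-20b, -1.11 for miR-19a and -1.03 for miR-20a, the last with the lowest adjusted p, 0.00217. The untreated KO signals of miR-18a, miR-19a and miR-20b were near background, as given above for the KO response. miR-19b differed by -0.72 and miR-92a by -0.52 (adjusted p = 0.0362). miR-17* stood at -0.75 (interval -1.53 to 0.02, adjusted p = 0.233), with both KO arrays below both WT arrays. The members' median was -1.03, against -0.03 over all microRNAs.

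Each scan session held 1 KO and 1 WT untreated array. The untreated difference by session was -1.13 and -0.92 for miR-20a, and -1.40 and -0.94 for miR-18a. The count of calls rested on few arrays: 2 members were called without either untreated KO array and 1 without replicate 1 of untreated WT. It was 0 with deposited unscaled values, normexp or scaling over all mouse microRNAs, and miR-20b turned to 1.03 with the deposited values and 0.795 with the software's total gene signal. That total, which the deposited values also hold, did not follow the summed probe signal here. In KO cells it was 63.1 and 59.8 at summed signals of 27.1 and 19.6. In WT cells it was 33.6 and 27.1 at 52.6 and 40.8. The cause was not tested.

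After 12 h of tunicamycin 2 members were lower in KO cells, against 8.52% of all microRNAs. miR-17* differed by -1.44 (SE 0.33, adjusted p = 0.0110 by limma) and miR-92a by -0.67 (SE 0.13, adjusted p = 0.00480). The other 5 gave -0.42 for miR-18a, -0.33 for miR-19b, -0.33 for miR-20b, -0.14 for miR-20a and 0.15 for miR-19a, and none passed. For miR-20a the interval of -0.41 to 0.12 leaves out a difference as large as the -1.03 of untreated cells, and for miR-19a the interval was -0.29 to 0.58. Over all microRNAs the median at 12 h was 0.23, so the members' median of -0.33 lay 0.56 below it, while with normexp the members' median of -0.37 lay 0.12 above that of all microRNAs.

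At 24 h 3 members were lower in KO cells, against 7.39% of all microRNAs. These were miR-17* with -1.29 (adjusted p = 0.0183 by limma), miR-92a with -0.78 (adjusted p = 0.00280) and miR-19b with -0.60 (adjusted p = 0.0128). The estimates of miR-18a, miR-20b, miR-20a and miR-19a were -0.53, -0.41, -0.26 and -0.10 and did not pass. With the replicate block miR-18a passed (limma, adjusted p = 0.0459), but not with the scan session as a block. The epithelial markers stood on the treated KO arrays and on none of the WT arrays, and their part in these differences was not tested.

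The difference of miR-17* rests on signal near background, since in treated cells it was detected on 1 of 2 KO arrays at each time and on 1 of 2 WT arrays at 24 h. Leaving out 1 array moved it between -1.67 and -1.21 at 12 h and between -1.79 and -0.79 at 24 h, the last without replicate 2 of KO 24 h, which stood at the floor. Its direction turned with the software's total gene signal at 24 h (1.17) and with normexp at 24 h (0.16). It also turned with the deposited values (0.30 at 12 h and 1.85 at 24 h), which are empty where it was not detected. These compare 1 KO array with 2 WT arrays at 12 h and with 1 WT array at 24 h. The count at 12 h was 1 without either KO 12 h array or without replicate 1 of WT 12 h, and the count at 24 h was 1 without replicate 2 of KO 24 h or replicate 1 of WT 24 h. Both counts were 0 with the deposited values, normexp, scaling over all mouse microRNAs and the total gene signal, while scaling by summed signal gave 4 calls at 12 h and 6 at 24 h. The shares of all microRNAs called in these settings are not given here.

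**Figure D3:**
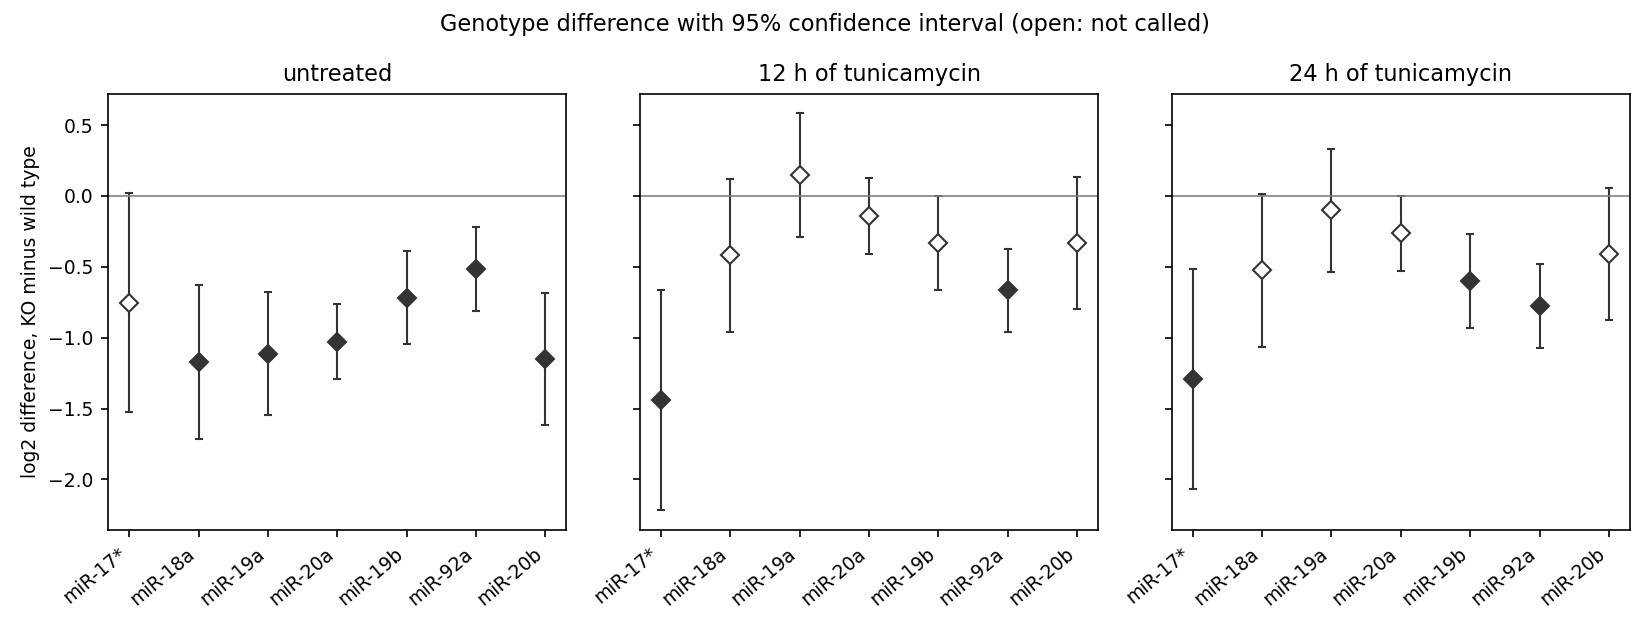
Log2 difference of ATF6bKO minus wild type for each tested member in untreated cells, at 12 h and at 24 h of tunicamycin, with the 95% confidence interval from limma (2 arrays a group). Open symbols did not pass the adjusted p of 0.05. Untreated differences run from -1.17 to -0.52, while at 12 h miR-19a sits at 0.15 and miR-17* at -1.44.

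Whether the genotypes differed in how far a member rose was tested directly, as the response in KO cells minus that in WT cells. At 12 h 2 members responded more in KO cells, miR-19a by 1.26 on the log2 scale (SE 0.26, adjusted p = 0.0141 by limma) and miR-20a by 0.89 (SE 0.16, adjusted p = 0.00797), against 22.2% of all microRNAs called higher. miR-20b gave 0.82 (interval 0.16 to 1.48, adjusted p = 0.0769), and passed with the scan session as a block (adjusted p = 0.0225) or the replicate block (0.0219). miR-18a gave 0.75 (interval -0.01 to 1.52). miR-19b gave 0.39 (interval -0.08 to 0.85), and miR-92a -0.15 (interval -0.57 to 0.27). The share of all microRNAs called was high and their median was 0.37, so the members' median of 0.75 lay 0.38 above it.

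At 24 h the same 2 members were called, miR-19a at 1.01 (adjusted p = 0.0359 by limma) and miR-20a at 0.77 (adjusted p = 0.0203), against 19.9% of all microRNAs. miR-20b gave 0.74 (interval 0.08 to 1.40, adjusted p = 0.105, and 0.0327 with the scan session and 0.0331 with the replicate number as a block) and miR-92a -0.26 (interval -0.68 to 0.16). The median over all microRNAs was 0.44. These differences share the untreated arrays with the genotype comparison above, in which miR-19a and miR-20a were lower in untreated KO cells. The untreated KO signal of miR-19a was near background, as given above.

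The call count at 12 h fell to 1 without replicate 2 of KO 12 h, and at 24 h to 0 without either untreated KO array or replicate 2 of WT 24 h and to 1 without any of 6 other arrays (both of KO 12 h, both of WT 12 h, replicate 1 of KO 24 h and replicate 1 of untreated WT). Both were 0 with the deposited values, normexp, quantile normalization, scaling over all mouse microRNAs or the total gene signal, and miR-20a turned to -0.03 at 12 h with the deposited values.

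Unequal change among the members was tested within arrays, where scaling cancels, by setting each of the 6 members detected on all arrays against the mean of the other 5. The 6 differences cancel by construction, so a fall of any member raises the others and the shifts are not independent findings. In treated against untreated cells, 5 of the 6 shifted (two-sided exact permutation within genotype, adjusted over 12 tests). miR-19a gained 0.46 (adjusted p = 0.032), miR-20b 0.24 (adjusted p = 0.0178) and miR-20a 0.24 (adjusted p = 0.0267). miR-18a shifted by -0.55 and miR-19b by -0.36 (adjusted p = 0.0178 each by the exact permutation). The direction was the same in both genotypes for these 5. The smallest p this design allows is 0.00444.

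miR-92a moved against its neighbours in opposite directions, by -0.49 in KO cells and 0.45 in WT cells, and its pooled shift was -0.02 (exact permutation, adjusted p = 0.911). Set against the other members, KO minus WT was 0.52 for miR-92a in untreated cells, -0.45 at 12 h and -0.40 at 24 h. For miR-19a it was -0.19 untreated, 0.53 at 12 h and 0.41 at 24 h. Pooled over conditions no member passed between KO and WT cells (exact permutation within condition, adjusted p from 0.130 to 0.879). The 2 genotypes' shifts were not compared by a test of their own.

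Counts of these within-array shifts also depended on the data used. None passed with normexp or with the total gene signal or deposited values, and 2 passed when the probes' logs were averaged. miR-20b turned to -0.02 with normexp and -0.64 with the total gene signal, where miR-18a turned to 0.13. None passed without either untreated KO array or replicate 2 of untreated WT, where fewer regroupings remain, and 2 members passed between KO and WT cells without replicate 1 of KO 24 h.

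**Figure D4:**
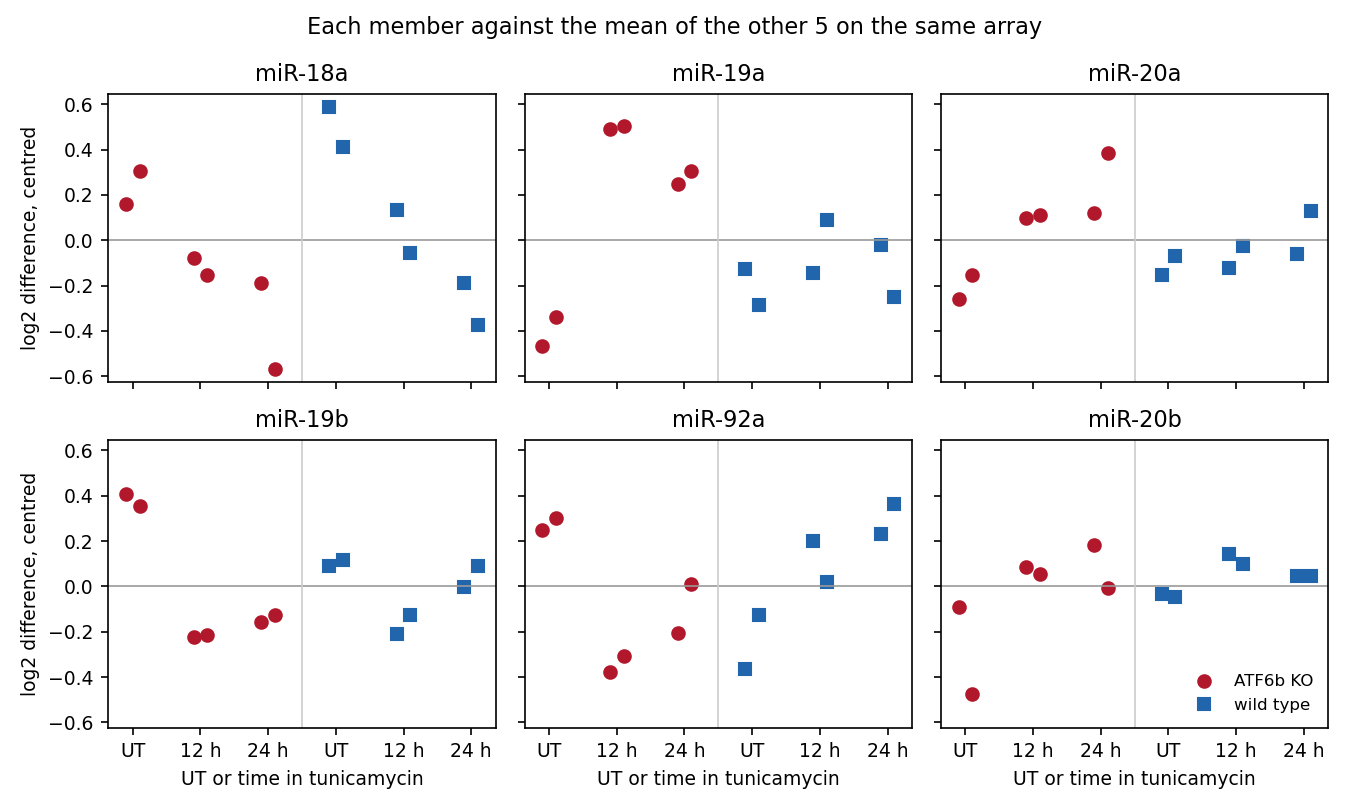
Log2 signal of each member minus the mean of the other 5 on the same array, centred on its mean over the 12 arrays, with ATF6bKO arrays left of wild-type arrays and untreated cells (UT) before 12 h and 24 h of tunicamycin. Points are arrays. The miR-18a points are higher on untreated than on treated arrays in both genotypes, and miR-92a runs down with treatment in KO cells and up in WT cells.

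The 2 probes of a member gave changes of the same sign for all 7 members in the WT responses and in the genotype differences. In the KO responses this held for 6 of 7 at each time, with a gap between probes of at most 0.61 on the log2 scale.

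Relatives of the cluster were read from a list of 18 paralogues, star strands and seed relatives, of which 15 were on the array. Of these, 3 were detected on all 12 arrays and tested, all from the cluster of miR-106b, miR-93 and miR-25, and they are shown because their seeds are those of members.

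miR-106b: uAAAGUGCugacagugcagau
miR-93: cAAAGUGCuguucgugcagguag
miR-25: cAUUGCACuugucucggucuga

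The miR-106b hairpin and its neighbours lie on chromosome 5, minus strand. In KO cells all 3 rose at 12 h, by 2.37 for miR-106b, 2.36 for miR-93 and 0.84 for miR-25 (adjusted p of at most 0.00296 by limma), and all 3 rose at 24 h. In WT cells all 3 rose at 12 h, by 1.42, 1.24 and 1.31 in the same order, and miR-106b and miR-25 at 24 h. miR-93 stood at 0.63 there (interval -0.19 to 1.45).

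The genotype differences of these relatives can be set beside those of the members with the same seed. miR-106b, with the seed of miR-20a and miR-20b, was lower in untreated KO cells, with a log2 difference of -0.74 (adjusted p = 0.0297 by limma), and responded more in KO cells by 0.95 at 12 h (adjusted p = 0.0271) and 0.82 at 24 h (adjusted p = 0.0493). miR-25, with the seed of miR-92a, was lower in KO cells at 12 h (-0.89, adjusted p = 0.00222) and at 24 h (-0.93, adjusted p = 0.00190), and its untreated difference of -0.42 did not pass. miR-93 gave -1.07 in untreated cells (interval -1.90 to -0.25) and did not pass.

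Of the other relatives on the array, miR-18a* was detected on 1 array. None of miR-18b, miR-363, miR-20b*, miR-106b*, miR-93*, miR-19a*, miR-20a*, miR-92a*, miR-92b, miR-32 and miR-367 was detected on any. The listed miR-106a of the X-linked cluster, miR-25* and miR-19b* were not on the array, so their levels are unknown. Among the microRNAs detected, the X-linked cluster was represented only by miR-20b and by the mature miR-19b and miR-92a that it shares with the cluster on chromosome 14. Its miR-18b, miR-363 and miR-20b* were on the array and not detected.

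Likeness to the cluster was measured as the root mean square difference, over the 12 arrays, between a microRNA's centred log2 profile and the mean profile of the 6 members detected everywhere. The closest non-members were miR-106b at 0.234, miR-93 at 0.294, miR-25 at 0.422, miR-15a at 0.422 and miR-15b at 0.444, against a median of 1.04 over all non-members. Members ranged from 0.134 for miR-20b and 0.140 for miR-20a to 0.265 for miR-18a, which are part of the profile they are set against. miR-17*, which is not, stood at 0.819. These are descriptions of 12 arrays that share 2 slides.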

How the data were processed

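The files hold Agilent 1-colour microRNA array scans, 1 per sample. Spot intensities are as deposited, after background subtraction in Agilent Feature Extraction 10.7.1.1, per the file headers and the submitters' processing notes. The deposited log2 values equal the total gene signal of that software for the same scan, on the log2 scale, to within 1.18e-06, are not scaled between arrays and are empty where a microRNA was not detected. Their medians ran from 5.75 to 6.87.

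From the intensities, control spots (715 of 13000) and outlier flags were left out, spots of a probe averaged and probes of a microRNA summed. The sums were divided by each array's 75th percentile over the 93 mouse microRNAs detected on all arrays, floored at 0.0191 and put on a log2 scale. No spot was saturated. Mouse microRNAs that at least 1 group detected on both its arrays (176 of 611) were fitted with limma 3.58.1 in R 4.3.3 over all 6 groups, without a block, with 6 residual and 1.65 prior degrees of freedom. Benjamini-Hochberg adjustment ran over the 176, with a threshold of 0.05. Fits and the exact permutation tests (Python 3.11.15) were tested on simulated data. The number of arrays limits the precision.

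The members, the relatives and the marker lists (fibroblast, epithelial, blood, muscle, neural, endothelial and liver, pluripotency) were chosen with earlier results of these data known. The text names all members, the listed relatives and the 5 tested non-members closest to the members' mean profile. Arrays with the same replicate number were scanned in the same session within a slide. Their deviations from group means correlated at 0.48 between the untreated pair and 0.76 to 0.91 over the 6 treated pairs, and at -0.38 to -0.05 between slides, so the numbers pair arrays within a slide only. Alternatives covered background correction, scaling, the detection filter, the floor, probe averaging, blocks, the samples fitted and leaving out arrays. Normexp used the spots' median signal, since the files hold no mean signal, with an offset of 50 and the same percentile scaling. Scaling by summed signal was added after seeing the data.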

Additional observations from a re-analysis of the deposited data

Results flagged for a closer look

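For miR-19a and miR-20a the difference between the genotypes' responses to tunicamycin passed the test of that difference itself (limma, adjusted over 176 microRNAs, 2 arrays a group). At 12 h the response in KO cells exceeded that in WT cells by 1.26 on the log2 scale for miR-19a (adjusted p = 0.0141) and by 0.887 for miR-20a (adjusted p = 0.00797). At 24 h the excess was 1.01 for miR-19a (adjusted p = 0.0359) and 0.765 for miR-20a (adjusted p = 0.0203). Among all microRNAs tested, 22.2% at 12 h and 19.9% at 24 h were called higher in this comparison, near the 2 of 7 members. Both counts of members were 0 with the deposited values, normexp, quantile normalization, scaling over all mouse microRNAs and the total gene signal. Relative to the median of all microRNAs tested, these came to 0.89 and 0.52 at 12 h and to 0.57 and 0.32 at 24 h. The untreated KO signal of miR-19a, which enters both times, was near background.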

How the results depend on the processing

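Counts are of members called, out of 7 tested unless stated (6 for within-array shifts and with only microRNAs detected on all arrays, 8 without the detection filter). The rises in KO cells (6 at 12 h and at 24 h) and in WT cells (6 at 12 h, 5 to 6 at 24 h) held whichever array was left out. The other counts ranged, over arrays left out in turn, from 1 to 6 for KO against WT untreated, 1 to 2 at 12 h and 1 to 4 at 24 h. They ranged from 1 to 2 for the response difference at 12 h and 0 to 2 at 24 h, and from 0 to 5 (treatment) and 0 to 2 (genotype) for within-array shifts, and 0 to 0 between the times in both genotypes.

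With the deposited unscaled log2 values all counts and the treatment shifts within arrays were 0. Calls turned there for miR-20b in KO cells at 12 h (-0.42) and untreated between genotypes (1.03). They turned for miR-17* between genotypes (0.30 at 12 h, 1.85 at 24 h), with 1 KO array at each time and 1 WT array at 24 h. They also turned for the response difference of miR-20a at 12 h (-0.029) and within arrays for miR-18a (0.13) and miR-20b (-0.64). With the total gene signal the counts were 3 for KO at 24 h, 2 for WT at 24 h, 1 for untreated genotypes and 0 for treated genotypes, response differences and within-array shifts, and miR-20b (0.795 untreated), miR-17* (1.17 at 24 h) and within arrays miR-18a (0.13) and miR-20b (-0.64) turned. With normexp they were 1 for KO at 12 h and 0 elsewhere, and miR-17* at 24 h (0.16) and miR-20b within arrays (-0.023) turned. Scaling over all mouse microRNAs gave 3 for KO at 12 h, 1 at 24 h and 0 elsewhere. Quantile normalization gave 3 for WT at 24 h, 2 for untreated genotypes and 0 for genotypes at 12 h and for both response differences. Scaling by summed signal, added after seeing the data, gave 4 for genotypes at 12 h, 6 at 24 h and 0 for the response difference at 24 h. The cause of these changes was not tested. For weak members the total gene signal, and so the deposited value, did not always follow the summed probe signal, as given above for miR-20b. For miR-17* it was 116 at a summed signal of 13.3 on replicate 1 of KO 12 h. On replicate 1 of WT 12 h it was 41.5 at 60.0.

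Without the detection filter the count was 1 for genotypes at 12 h and for each response difference, and with only microRNAs detected on all arrays it was 1 for genotypes at 12 h. Fits of only the groups compared, with fewer samples, gave 1 for genotypes untreated and at 12 h, 0 at 24 h and 1 for the response difference at 24 h. Without the 3 low-signal arrays the counts were 1 for genotypes at 24 h, 1 and 0 for the response differences and 0 for treatment shifts within arrays, and averaging probe logs gave 2 of those shifts. Of the single values under all alternatives, 1995 kept their side of the threshold, 243 no longer passed, 21 newly passed and 13 turned, while 77 values that had not passed changed sign.

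With the replicate block the counts were 6 and 6 in KO cells at 12 h and 24 h, 7 and 6 in WT cells, 6, 2 and 4 between genotypes untreated, at 12 h and at 24 h, and 3 for each response difference. With the scan session as a block they were 6 and 6, 7 and 5, 6, 2 and 3, and 3 each in the same order. No member was called between the times under either block. Treated and untreated arrays shared no session, so the session block cannot adjust the treatment comparisons. Its treatment estimates refer to the sessions of replicate 1 and are another contrast than those of the main fit. The scalings moved the median of all microRNAs by over 0.1, for example to 0.03 with scaling over all mouse microRNAs and -0.05 with summed signal, against 0.25, in KO cells at 12 h. The members' median above that of all microRNAs was then 1.63 and 1.62, against 1.63, but 0.67 with normexp, 1.25 with the deposited values and 1.44 with the total gene signal. In WT cells at 12 h normexp gave 0.18, against 1.59.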
